A study of Mus musculus with 10 samples.

Results

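Genomic imprints are DNA methylation marks that differ between the maternal and paternal copies of a locus, and the proteins that keep them in place are recruited by sequence. *Zfp57* and *Zfp445* encode KRAB zinc finger proteins that bind methylated imprinting control regions, and their KRAB domains recruit TRIM28, also called KAP1, the scaffold on which heterochromatin factors assemble. One of these factors is SETDB1, which trimethylates lysine 9 of histone H3 (H3K9). *Ehmt1* (GLP) and *Ehmt2* (G9a) encode the partners of a heterodimer that mono- and dimethylates H3K9, and *Suv39h2* encodes a trimethylase of constitutive heterochromatin that is best known from the germline. In primordial germ cells (PGCs), the precursors of oocytes and sperm, imprints are erased and H3K9 dimethylation is lowered genome-wide.

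These 7 genes were taken by their symbols from the deposited table of 36066 genes, chosen for their known roles and by no threshold on a measured value, though with earlier results of these data known, and all 7 passed the filter on low values. RNA-seq was available for 5 groups of C57BL6 mouse cells with 2 libraries each. ESCs were a female embryonic stem cell line from fertilized embryos. Parthenogenetic ESCs (pESCs) came from oocytes activated with strontium, so that their genomes are maternal alone. ESC-PGCLCs and pESC-PGCLCs are labelled as PGC-like cells, which each line formed through an epiblast-like step and culture with BMP4, SCF, EGF and LIF, sorted by the study as SSEA1 and CD61 double-positive cells. PGCs were germ cells from the gonads of female embryos, sorted for CD61 and SSEA1 or for SSEA1 alone, and the study isolated PGCs of 2 embryonic days while the labels of these libraries give none, so which age they hold is not known here. The protocol text shared by all labels also names crotonic acid in an induction medium, without saying whether any of these libraries received it. The cultured cells carry an Actin-GFP transgene by the study's methods. The study calls the 2 libraries of a group biological replicates, but neither it nor the labels say whether they came from separate lines, cultures or litters, so p-values measure the spread between these libraries.

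Values were TPM, a measure of transcript abundance in which the reads of a gene are set against its length and each library sums to the same total. The reads that could be recovered from them numbered 6779838 to 18572901 a library (median 13750969), lowest in both ESC-PGCLC libraries, and 3 reads on a member corresponded to 0.0311 to 0.195 TPM, a floor that covers counting error only. Differences between groups are on the scale of log2(TPM + 1). A gene was called at a Benjamini-Hochberg adjusted p under 0.05 over the 27259 genes tested with limma, together with a change of at least 2-fold. Shares and medians of all genes given below count genes of low level too, whose differences the added 1 draws toward 0. With 2 libraries against 2, an exact two-sided permutation test cannot go below p = 0.333, so calls rest on limma's variance model.

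The labels were checked with marker genes. *Dazl*, an RNA-binding protein of germ cells, lay between 12.1 and 18.7 TPM in the stem cell libraries and between 1084 and 2095 TPM in the PGCLC and PGC libraries. *Ddx4*, another germ cell gene listed, lay between 1.51 and 3.35 TPM in the stem cell libraries. It was at 260 and 281 TPM in ESC-PGCLCs, 186 and 191 TPM in pESC-PGCLCs, and 189 and 303 TPM in PGCs. Its level thus did not separate the PGCLC libraries from the PGC libraries. *Pou5f1* (Oct4), which both stem cells and early germ cells are known to express, was at 23.5 and 19.0 TPM in ESCs, 7.80 and 7.49 TPM in pESCs, 0.374 and 0 TPM in ESC-PGCLCs, 2.98 and 2.88 TPM in pESC-PGCLCs, and 3.14 and 1.63 TPM in PGCs. The other pluripotency genes listed were not near 0 in ESC-PGCLCs. *Nanog*, *Zfp42* and *Esrrb* were lower there than in ESCs, at 24.2 and 35.0, 55.1 and 62.4, and 5.04 and 4.35 TPM. *Sox2* was higher, at 97.3 and 110 TPM against 32.7 and 44.6 TPM in ESCs. Genes of other cell types also moved with the groups. The summed level of 7 erythroid genes was 0.109 to 4.09 TPM in the stem cells, 437 and 504 TPM in ESC-PGCLCs, 2762 and 2230 TPM in pESC-PGCLCs, and 1890 and 1703 TPM in PGCs. The summed level of 7 gonadal somatic genes was 3.79 to 4.80 TPM in the stem cells, 15.7 and 19.9 TPM in ESC-PGCLCs, 39.6 and 34.4 TPM in pESC-PGCLCs, and 77.1 and 68.4 TPM in PGCs. *Amhr2* held most of the stem cell sum, at 4.22 and 3.57 TPM in ESCs and 4.71 and 4.03 TPM in pESCs. It alone of the 7 was lower in ESC-PGCLCs than in ESCs, at 1.26 and 2.33 TPM. Most of the ESC-PGCLC sum came from *Wt1* and *Lhx9*, with means of 7.61 and 6.84 TPM. *Foxl2* stayed near 0 there, at 0.0646 and 0.0755 TPM. The 4 endothelial genes summed to 1.06 to 3.74 TPM over the 10 libraries but moved in opposite directions: *Tek* lay at 2.25 to 3.14 TPM in the stem cells and 0.178 to 0.947 TPM in the others, whereas *Kdr*, *Cdh5* and *Emcn* lay at 0 to 0.0383 TPM in the stem cells and at 0.489 to 1.56, 0.329 to 1.08 and 0.0389 to 0.655 TPM in the others. A further 6 fibroblast and feeder genes summed to 0.193 to 0.400 TPM in the stem cells and 3.78 to 10.9 TPM in the others. The globin and gonadal somatic transcripts, and *Pou5f1* near 0 in ESC-PGCLCs, go against libraries of cultured PGC-like cells alone, so PGCLC is used below as the label of these libraries. The part of these cells in the results on the 7 genes was not tested, and fewer cells of a type cannot be told apart from less RNA per cell in bulk libraries.

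The promoters of the gene that fell most on differentiation, the gene that rose most in the pESC series and the gene with the widest log2(TPM + 1) difference between the PGCLC groups are shown for their content of CG dinucleotides, the sites of DNA methylation, which are in capitals. They span 250 bases before and 50 bases after a RefSeq start site (GRCm38.p6) and are written 5′ to 3′ on the strand of the gene. *Zfp57* is shown at chr17:37000913-37001212 (+), *Suv39h2* at chr2:3474937-3475236 (−) and *Trim28* at chr7:13023902-13024201 (+).
Zfp57: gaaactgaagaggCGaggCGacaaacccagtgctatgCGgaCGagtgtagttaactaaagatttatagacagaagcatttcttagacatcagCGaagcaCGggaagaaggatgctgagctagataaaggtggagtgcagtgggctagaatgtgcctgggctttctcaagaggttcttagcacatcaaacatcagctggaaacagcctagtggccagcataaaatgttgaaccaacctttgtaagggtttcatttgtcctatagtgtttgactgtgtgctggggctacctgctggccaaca
Suv39h2: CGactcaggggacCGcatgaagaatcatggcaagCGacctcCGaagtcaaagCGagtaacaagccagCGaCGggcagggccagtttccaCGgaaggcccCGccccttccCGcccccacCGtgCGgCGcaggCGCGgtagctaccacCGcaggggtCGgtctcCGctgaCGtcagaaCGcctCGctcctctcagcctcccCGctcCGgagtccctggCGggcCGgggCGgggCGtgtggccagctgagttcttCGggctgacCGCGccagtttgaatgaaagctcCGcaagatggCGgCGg
Trim28: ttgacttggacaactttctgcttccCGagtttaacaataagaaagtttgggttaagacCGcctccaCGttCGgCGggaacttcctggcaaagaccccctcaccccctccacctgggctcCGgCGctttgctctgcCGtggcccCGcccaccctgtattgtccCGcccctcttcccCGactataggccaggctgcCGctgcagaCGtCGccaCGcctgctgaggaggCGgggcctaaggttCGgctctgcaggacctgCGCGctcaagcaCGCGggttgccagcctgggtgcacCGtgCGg

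All 7 genes had entries, 10 promoters in all, and the median over 32851 promoters of this length was 7 CG. *Zfp57* held 4, 6 and 9 CG at 3 start sites, the printed one holding 6. *Suv39h2* held 33, *Ehmt1* 34, *Ehmt2* 28 and 40 at 2 start sites, *Trim28* 23, *Setdb1* 15 and *Zfp445* 10. Of the 10 promoters, 2 of *Zfp57* alone lay below the median, and 8.56% of all promoters held at least as many CG as that of *Suv39h2*. The letters TGCCGC, the methylated core that ZFP57 is known to bind, searched on both strands, occurred in 2 of the 10 promoters, those of *Trim28* and the second start of *Ehmt2*, against 11.6% of all promoters. A match of letters is a description and not a bound site.

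By GENCODE M21 (GRCm38) *Zfp57* lies at chr17:37001163-37010635 (+), *Zfp445* at chr9:122844529-122866006 (−), *Trim28* at chr7:12999114-13031035 (+) and *Setdb1* at chr3:95323525-95357202 (−). *Ehmt1* lies at chr2:24789928-24919614 (−), *Ehmt2* at chr17:34898469-34914052 (+) and *Suv39h2* at chr2:3455815-3475031 (−), and all 7 are protein-coding. Genes on the opposite strand overlap *Trim28* (*Zbtb45*), *Setdb1* (*Cers2*, *Gm37500* and *Gm42578*) and *Suv39h2* (*Dclre1c* and *Gm13184*). Whether reads were counted by strand is not given in the sources used here, so reads of such pairs may not be told apart.

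*Zfp57* was highest in the stem cells. It stood at 29.3 and 19.6 TPM in ESCs and at 9.29 and 11.4 TPM in pESCs. It was at 0.0555 and 0.260 TPM in ESC-PGCLCs, which are 1 and 4 reads, at 0.806 and 1.68 TPM in pESC-PGCLCs (26 and 60 reads), and at 0.621 and 0.292 TPM in PGCs (15 and 10 reads). The 5 groups did not overlap one another, in the order ESC-PGCLCs, PGCs, pESC-PGCLCs, pESCs and ESCs from low to high. Both values in ESC-PGCLCs lie close to the 3-read floors of 0.167 and 0.195 TPM, 1 of them below it.

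*Zfp445*, the other imprint reader, took the opposite course. Its levels were 6.72 and 7.36 TPM in ESCs, 4.59 and 8.19 TPM in pESCs, 13.0 and 15.0 TPM in ESC-PGCLCs, 13.0 and 15.2 TPM in pESC-PGCLCs, and 19.0 and 22.6 TPM in PGCs. Neither the pair of stem cell groups nor the pair of PGCLC groups could be separated, and PGCs lay above both PGCLC groups. Since both genes are read in the same library, their ratio does not depend on the scaling of libraries. The ratio of *Zfp57* to *Zfp445* TPM was 3.51 ± 1.20 (SD, n = 2) in ESCs, 1.71 ± 0.449 in pESCs, 0.0108 ± 0.00924 in ESC-PGCLCs, 0.0863 ± 0.0342 in pESC-PGCLCs and 0.0228 ± 0.0140 in PGCs. The order of the lowest groups rests on few reads of *Zfp57*: as a ratio of TPM + 1, ESC-PGCLCs were at 0.0773 and PGCs at 0.0680. Per length, *Zfp57* was thus the more abundant of these readers in each of the 4 stem cell libraries and the less abundant in each of the other 6.

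*Trim28* was the most abundant of the 7 genes per length in every library, and its level differed between the PGCLCs of the 2 origins. ESCs had 72.8 and 72.9 TPM and pESCs 40.3 and 52.4 TPM. ESC-PGCLCs had 40.8 and 34.4 TPM, while pESC-PGCLCs had 112 and 118 TPM and PGCs 158 and 115 TPM. ESC-PGCLCs overlapped pESCs at the low end, pESC-PGCLCs overlapped PGCs at the high end, and ESCs lay between with no overlap.

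*Setdb1*, the H3K9 trimethylase that works with TRIM28, was at 7.32 and 6.73 TPM in ESCs and at 4.57 and 5.91 TPM in pESCs. It was at 21.1 and 20.4 TPM in ESC-PGCLCs, 20.9 and 21.7 TPM in pESC-PGCLCs and 28.9 and 31.5 TPM in PGCs. The PGCLC groups overlapped, and all other neighbours in this order were apart. Of its transcript stretches of 100 bases, 5.61% also occur in the annotated genes *Gm4349* and *Gm37500*, so a share of its reads is uncertain. The ratio of *Trim28* to *Setdb1* was 10.4 ± 0.623 (SD, n = 2) in ESCs, 8.85 ± 0.0414 in pESCs, 1.81 ± 0.171 in ESC-PGCLCs, 5.41 ± 0.0743 in pESC-PGCLCs and 4.56 ± 1.28 in PGCs. It was lower in all 6 PGCLC and PGC libraries than in the 4 stem cell libraries, and lowest in both ESC-PGCLC libraries.

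The partners *Ehmt1* and *Ehmt2* did not change in step. *Ehmt1* was at 2.93 and 2.81 TPM in ESCs, 1.71 and 2.73 TPM in pESCs, 8.47 and 10.3 TPM in ESC-PGCLCs, 8.70 and 10.1 TPM in pESC-PGCLCs, and 13.3 and 10.8 TPM in PGCs. *Ehmt2* was at 2.41 and 2.34 TPM in ESCs, 1.51 and 1.60 TPM in pESCs, 1.30 and 1.97 TPM in ESC-PGCLCs (34 and 44 reads), 4.19 and 3.41 TPM in pESC-PGCLCs, and 8.20 and 3.61 TPM in PGCs. The PGC libraries differed from each other more for *Ehmt2* than the pESC-PGCLC group differed from their mean, and those groups overlapped. The ratio of *Ehmt2* to *Ehmt1* was 0.829 ± 0.00784 (SD, n = 2) in ESCs, 0.735 ± 0.212 in pESCs, 0.173 ± 0.0266 in ESC-PGCLCs, 0.411 ± 0.101 in pESC-PGCLCs and 0.476 ± 0.201 in PGCs. ESC-PGCLCs again held the 2 lowest ratios, whereas pESC-PGCLCs overlapped PGCs and the PGC group overlapped pESCs.

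*Suv39h2* was the second most abundant of the 7 genes in PGCLCs and PGCs, and its 5 groups did not overlap. It was at 9.35 and 9.52 TPM in ESCs, 5.19 and 6.93 TPM in pESCs, 26.8 and 27.6 TPM in ESC-PGCLCs, 32.1 and 32.6 TPM in pESC-PGCLCs, and 43.4 and 41.5 TPM in PGCs. Between the lowest and the highest group mean, pESCs and PGCs, the level differed 7.01-fold. The ratio of *Suv39h2* to its paralog *Suv39h1*, which acts more broadly, was 0.891 ± 0.050 (SD, n = 2) in ESCs and 0.788 ± 0.0190 in pESCs, and 1.62 ± 0.0255, 1.40 ± 0.0828 and 1.37 ± 0.0997 in ESC-PGCLCs, pESC-PGCLCs and PGCs. It lay below 1 in all 4 stem cell libraries and above 1 in the other 6. *Suv39h1* shares 10.1% of its stretches of 100 bases with *Gm14820*, and *Suv39h2* 1.84% with *Dclre1c*.

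**Figure D1:**
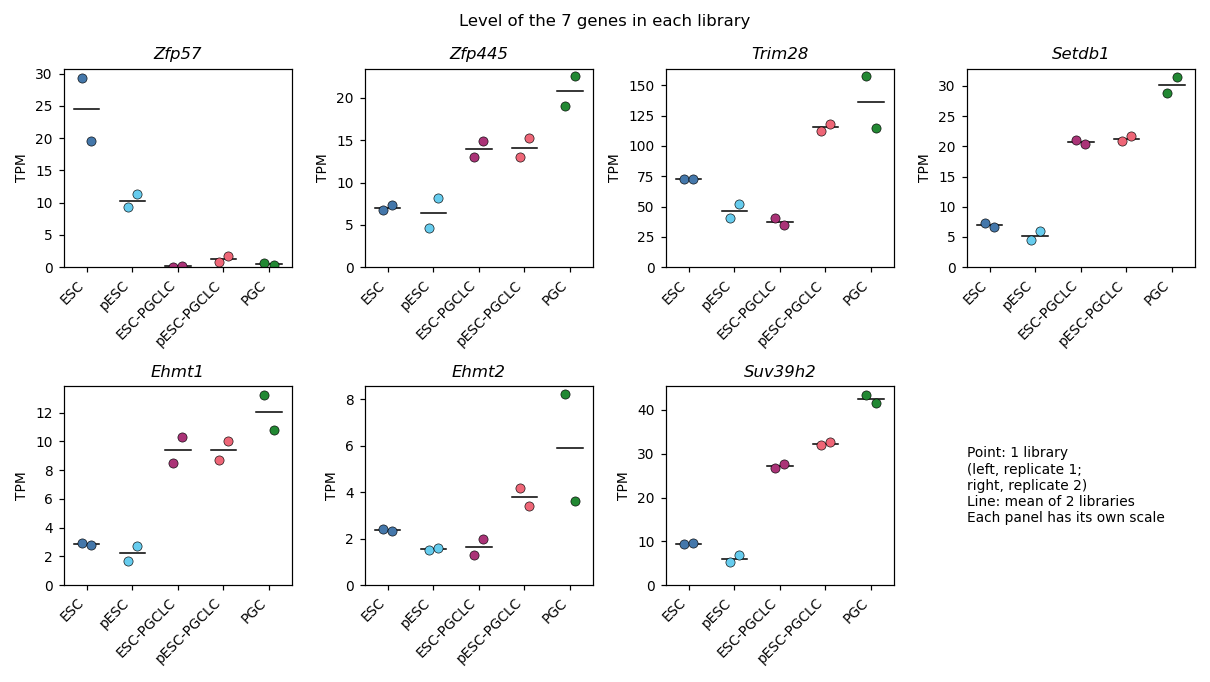
TPM (vertical axis, from 0, a scale for each gene) of the 7 genes in the 5 groups (horizontal axis), with 1 point a library and a line at the mean of 2 libraries. *Zfp57* is high in the stem cells alone, and *Trim28* is low in ESC-PGCLCs (40.8 and 34.4 TPM) and high in pESC-PGCLCs (112 and 118 TPM). *Zfp445*, *Setdb1*, *Ehmt1* and *Suv39h2* are higher in each PGCLC and PGC library than in each stem cell library.

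**Figure D2:**
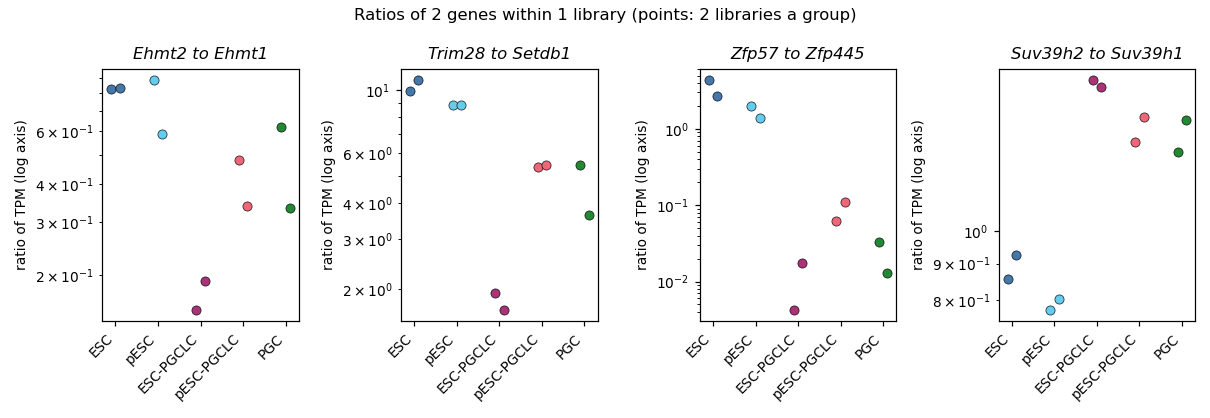
Ratio of the TPM of 2 genes within each library (vertical axes, log scale) for the 5 groups (horizontal axis), with 1 point a library. The ratio of *Trim28* to *Setdb1* and that of *Ehmt2* to *Ehmt1* are lowest in ESC-PGCLCs (means 1.81 and 0.173), and the ratio of *Suv39h2* to *Suv39h1* is above 1 in PGCLCs and PGCs alone.

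The first comparison asked what differentiation from ESCs to ESC-PGCLCs changed. *Setdb1*, *Ehmt1* and *Suv39h2* rose and *Zfp57* fell, so that 3 of 7 members were called higher and 1 lower, where 15.3% and 14.5% of all genes tested were called higher and lower. With a filter of 1 TPM the counts of members were the same, and 4163 and 3975 of 17694 genes were called higher and lower. The log2 difference was 1.44 ± 0.149 (SE) for *Setdb1* (limma, adjusted p = 0.000132), 1.42 ± 0.205 for *Ehmt1* (adjusted p = 0.000746), 1.43 ± 0.148 for *Suv39h2* (adjusted p = 0.000130) and -4.44 ± 0.278 for *Zfp57* (adjusted p = 1.2e-05). Because *Zfp57* was so low in ESC-PGCLCs, the size of its fall depends on the pseudocount, and with 0.1 in place of 1 the log2 difference was -6.67. *Trim28* (-0.94 ± 0.194, limma adjusted p = 0.00477) and *Zfp445* (0.89 ± 0.239, adjusted p = 0.0162) had adjusted p-values under 0.05 with less than the 2-fold minimum, and *Ehmt2* differed by -0.37 ± 0.312 (adjusted p = 0.378). *Trim28* passed the minimum on recovered reads (-1.02) and without the first ESC-PGCLC library (-1.06). All 7 genes kept the sign of these differences under quantile normalization, median centring and a fit on recovered reads.

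The second comparison asked the same of pESCs. In pESC-PGCLCs *Zfp445*, *Trim28*, *Setdb1*, *Ehmt1* and *Suv39h2* rose and *Zfp57* fell, so that 5 of 7 members were called higher and 1 lower, against 20.8% and 6.80% of all genes. With a filter of 1 TPM the counts of members were the same, and 5721 and 1874 of 17694 genes were called higher and lower. The largest rise was that of *Suv39h2*, with a log2 difference of 2.25 ± 0.148 (SE; limma, adjusted p = 2.38e-05), followed by *Setdb1* (1.85 ± 0.149, adjusted p = 5.68e-05) and *Ehmt1* (1.70 ± 0.205, adjusted p = 0.000347). *Trim28*, which was lower after differentiation in the ESC series, rose by 1.31 ± 0.194 (limma, adjusted p = 0.000986) and *Zfp445* by 1.07 ± 0.239 (adjusted p = 0.00743). *Zfp57* fell by 2.36 ± 0.278 on the log2 scale (limma, adjusted p = 0.000316), and *Ehmt2* differed by 0.90 ± 0.312 (adjusted p = 0.0465), under the 2-fold minimum. Each sign held under the other scalings, but 3 of these calls did not: with median centring *Trim28*, *Ehmt1* and *Zfp445* were at 0.58, 0.97 and 0.34, and quantile normalization left *Trim28* at 0.97 and *Zfp445* at 0.41. *Zfp445* also lost its call on recovered reads (0.91), without the first pESC library (0.71) and without the second pESC-PGCLC library (0.96). With the compared groups alone 4 members were called higher, in place of 5. *Ehmt2* was called with a pseudocount of 0.1 (1.23).

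The choice of scaling bears on these comparisons beyond the 7 genes. TPM fixes the sum of each library, and centring the libraries on the median of 9024 genes seen in all of them moved the median log2 difference of the genes tested in pESC-PGCLCs versus pESCs from 0.22 to -0.51, that in ESC-PGCLCs versus ESCs from 0.05 to 0.06, that in pESCs versus ESCs from -0.06 to 0.28, that in pESC-PGCLCs versus ESC-PGCLCs from 0.12 to -0.29, that in PGCs versus ESC-PGCLCs from 0.27 to -0.34, that in PGCs versus pESC-PGCLCs from 0.11 to -0.09 and that of the interaction from 0.21 to -0.54. The split of called genes moved with it. In pESC-PGCLCs versus pESCs 5681 genes were called higher and 1854 lower, against 3307 and 3022 with quantile normalization and 2280 and 5010 with median centring. In pESC-PGCLCs versus ESC-PGCLCs the 2812 higher and 839 lower became 1735 and 1316, and 1460 and 1891. In PGCs versus ESC-PGCLCs the 3260 and 512 became 938 and 966, and 712 and 2003. In PGCs versus pESC-PGCLCs the 564 and 436 became 296 and 591, and 293 and 821. For the interaction the 4236 and 961 became 2254 and 1627, and 1727 and 4062, and in pESCs versus ESCs the 45 and 168 became 65 and 57, and 161 and 30.

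**Figure D3:**
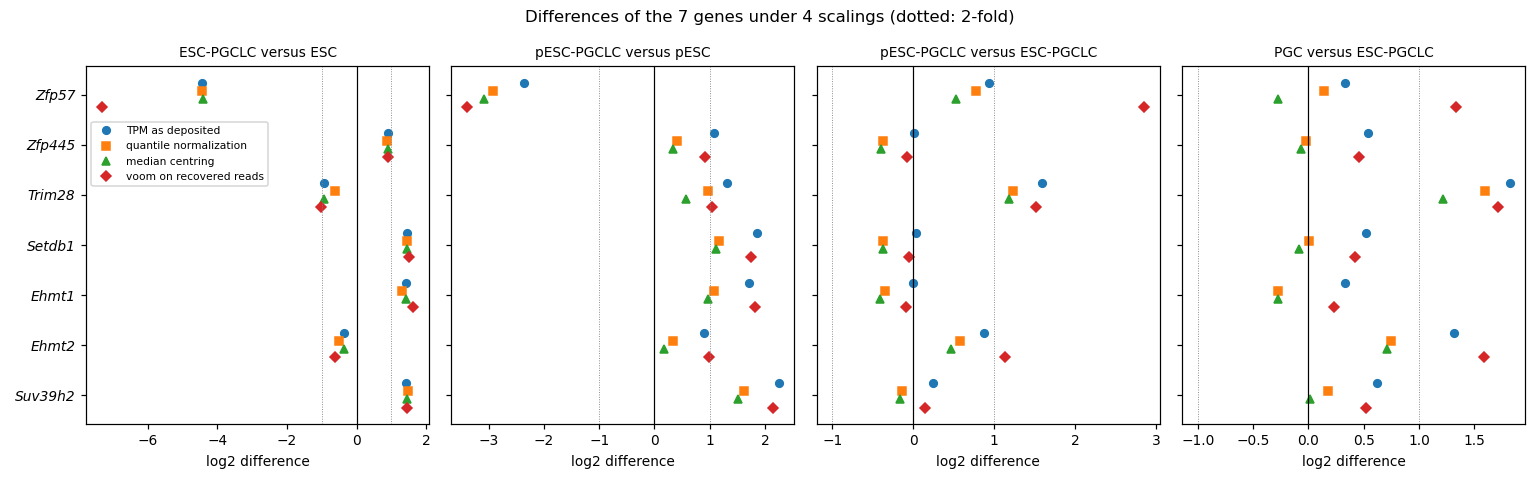
Log2 difference (horizontal axes, TPM-based values on log2(TPM + 1)) of the 7 genes (rows) in 4 comparisons, from TPM as deposited, after quantile normalization, after median centring and from voom on recovered reads. The 4 symbols lie on the same side of 0 for every gene in the differentiation of ESCs and of pESCs, and on both sides of 0 for *Setdb1*, *Ehmt1*, *Zfp445* and *Suv39h2* in pESC-PGCLCs versus ESC-PGCLCs and for *Ehmt1*, *Zfp445*, *Setdb1* and *Zfp57* in PGCs versus ESC-PGCLCs.

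Whether the change with differentiation differed between the origins was tested as an interaction, the log2 difference in the pESC series minus that in the ESC series. It was called for *Trim28* (2.25 ± 0.274 (SE), limma adjusted p = 0.00127) and for *Zfp57* (2.08 ± 0.393, adjusted p = 0.00772; 3.64 with a pseudocount of 0.1 and 3.93 on recovered reads), so that 2 of 7 members were called higher and 0 lower, against 15.5% and 3.53% of all genes. *Trim28* rose in one series and was lower in the other, whereas *Zfp57* fell in both and fell less in the pESC series, from a lower starting level. *Suv39h2* was at 0.82 ± 0.210 (limma, adjusted p = 0.0275), under the 2-fold minimum, and *Ehmt2* at 1.27 ± 0.441 (adjusted p = 0.0762), which was called when either PGC library was left out of the fit (limma, adjusted p = 0.0153 and 0.0150), with the compared groups alone (0.0158) and with a filter of 1 TPM (0.0471). *Setdb1* (0.41), *Ehmt1* (0.28) and *Zfp445* (0.18) were not called, and these 3 turned negative under quantile normalization and median centring, *Zfp445* also on recovered reads. The interaction of *Trim28* and of *Zfp57* was called under each alternative tried.

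Undifferentiated pESCs and ESCs were compared next. No member was called in pESCs versus ESCs by limma, where 0.165% of all genes were called higher, 0.616% lower and 0.781% in either direction, and 4 members (*Zfp57*, *Trim28*, *Setdb1* and *Suv39h2*) had an unadjusted p under 0.05, as did 17.7% of all genes. All 7 differences were below 0 with TPM as deposited, from -1.15 ± 0.278 (SE) for *Zfp57* (limma, adjusted p = 0.0790) to -0.16 ± 0.239 for *Zfp445*, but *Zfp445* was above 0 with quantile normalization (0.09) and median centring (0.17), as was *Ehmt1* with centring (0.05). Of the members 6 had a highest pESC value under the lowest ESC value, as did 31.3% of all genes. The median difference of the 7 genes was -0.40, beside -0.06 over all genes and -0.16 over the 17694 genes passing a filter of 1 TPM. Median centring moved the median over all genes to 0.28. Members at an unadjusted limma p under 0.05 numbered 2 with quantile normalization and 1 with centring, beside 4084 and 7312 of the 27259 genes. In the fit on recovered reads *Zfp57* was called, at -1.08 (limma voom, adjusted p = 0.0387).

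Between the PGCLC groups, *Trim28* was higher in pESC-PGCLCs than in ESC-PGCLCs by 1.60 ± 0.194 (SE) on the log2 scale (limma, adjusted p = 0.00107). It was the 1 member called higher and none was called lower, where 10.3% and 3.08% of all genes were. *Zfp57* was at 0.93 ± 0.278 (limma, adjusted p = 0.0451), under the 2-fold minimum, and passed it with a pseudocount of 0.1 (2.43) and on recovered reads (2.85). *Ehmt2* was at 0.87 ± 0.312 (limma, adjusted p = 0.0829). The other members lay between 0.0017 and 0.24, and *Setdb1*, *Ehmt1*, *Zfp445* and *Suv39h2* turned negative under quantile normalization and median centring, the first 3 also on recovered reads. Erythroid and gonadal somatic genes were also higher in both pESC-PGCLC libraries than in both ESC-PGCLC libraries, by the sums given above, and their part in the difference of *Trim28* was not tested.

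PGCs were compared with each kind of PGCLC. Against ESC-PGCLCs, *Trim28* (1.82 ± 0.194 (SE), limma adjusted p = 0.00139) and *Ehmt2* (1.32 ± 0.312, adjusted p = 0.0166) were called higher, 2 of 7 members with 0 lower, where 12.0% and 1.88% of all genes were called. *Suv39h2* (0.62, limma adjusted p = 0.0169) and *Setdb1* (0.52, adjusted p = 0.0323) had adjusted p-values under 0.05 below the 2-fold minimum. The call of *Trim28* held under both other scalings, but neither gene was called with the compared groups alone (limma, adjusted p = 0.0613 for *Trim28* and 0.168 for *Ehmt2*), and *Ehmt2* was at 0.75 with quantile normalization and 0.71 with centring, and at 0.82 without the first PGC library and 1.13 without the first ESC-PGCLC library (limma, adjusted p = 0.0884). Under centring *Setdb1*, *Ehmt1*, *Zfp445* and *Zfp57* turned negative, and under quantile normalization *Ehmt1* and *Zfp445*. Against pESC-PGCLCs, no member was called by limma, where 2.07% of all genes were called higher, 1.60% lower and 3.67% in either direction, and 2 members (*Setdb1* and *Suv39h2*) had an unadjusted p under 0.05, as did 29.2% of all genes. There 4 members (*Zfp445*, *Setdb1*, *Ehmt1* and *Suv39h2*) were higher in both PGC libraries, as were 37.4% of all genes. *Zfp57* was lower in both, at 15 and 10 reads against 26 and 60 (limma, adjusted p = 0.195). The share of all genes lower in both was not computed. The PGCLC comparisons share the PGC libraries, so for *Trim28* the values stand side by side: 1.82 against ESC-PGCLCs and 0.22 ± 0.194 against pESC-PGCLCs.

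**Figure D4:**
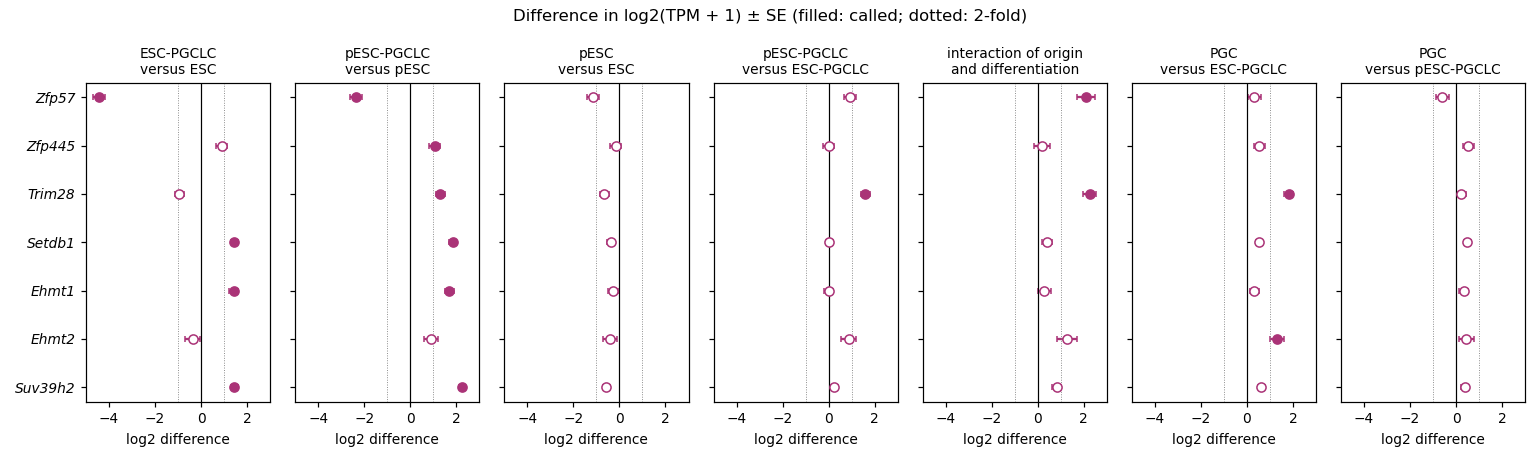
Difference in log2(TPM + 1) with its standard error (horizontal axes) for the 7 genes (rows) in the 7 comparisons, filled where called and with dotted lines at 2-fold. *Trim28* is filled in 4 of the panels and lies near 0 in PGCs versus pESC-PGCLCs (0.22), and no gene is filled in pESCs versus ESCs or in PGCs versus pESC-PGCLCs.

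A list of 33 other genes of H3K9 methylation and imprint protection placed the members in their pathway. In ESC-PGCLCs versus ESCs 10 of these rose and 4 fell, where 15.3% and 14.5% of all genes did, with a median log2 difference of 0.45 beside 0.05 over all genes, and in pESC-PGCLCs versus pESCs 13 rose and 3 fell, against 20.8% and 6.80%, with a median of 0.70 beside 0.22. Of the 17694 genes passing a filter of 1 TPM, 4163 rose and 3975 fell in the ESC series, with a median of 0.12. In the pESC series 5721 of them rose and 1874 fell, with a median of 0.58. Under median centring 10 rose and 4 fell in the ESC series, against 15.5% and 14.4% of all genes, whereas in the pESC series 6 rose and 5 fell, against 8.36% and 18.4%. Quantile normalization gave 11 and 3 in the ESC series, against 15.4% and 15.3%, and 6 and 4 in the pESC series, against 12.1% and 11.1%. Among the other H3K9 methyltransferases, *Setdb2* rose in both series (2.17 ± 0.212 and 2.33 ± 0.212; SE), and *Suv39h1* rose in the pESC series (1.49 ± 0.157, but 0.85 under quantile normalization and 0.76 under centring, below the 2-fold minimum) and was at 0.62 ± 0.157 in the ESC series. The partners of SETDB1 and the HUSH complex, which spreads H3K9 trimethylation over repeats, had 3 of 7 genes called higher in the ESC series and 4 of 7 in the pESC series, with none lower, beside the same shares of all genes (15.3% and 20.8% higher, 14.5% and 6.80% lower), though *Atf7ip2* and *Morc2a* in the pESC series were under 2-fold after quantile normalization or centring. Of these, *Pphln1*, a HUSH subunit, rose most in the pESC series, from 2.63 and 4.65 TPM in pESCs to 33.1 and 31.0 TPM in pESC-PGCLCs, and its interaction was called (1.37 ± 0.301, limma adjusted p = 0.0147), though not under quantile normalization (0.79) or centring (0.62), nor without the first library of ESCs, of ESC-PGCLCs or of pESC-PGCLCs (limma, adjusted p up to 0.0672).

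The HP1 proteins, which bind methylated H3K9, went separate ways. *Cbx3* (HP1γ) rose in both series, in the pESC series not under quantile normalization (0.68), centring (0.37), on recovered reads (0.84), with the compared groups alone (limma, adjusted p = 0.0708) or without the second pESC (0.85) or pESC-PGCLC library (0.84), whereas *Cbx5* (HP1α) fell in the ESC series from 42.5 and 39.0 TPM to 15.7 and 18.4 TPM and was at 22.4 and 33.1 TPM in pESCs and 28.6 and 29.0 TPM in pESC-PGCLCs. The interaction of *Cbx5* was called (1.29 ± 0.280, limma adjusted p = 0.0140), though not under quantile normalization (0.61) or centring (0.55), nor without the first ESC, the first ESC-PGCLC or either pESC-PGCLC library (limma, adjusted p up to 0.0647), and in the ESC series it was at -0.99 under quantile normalization, just under 2-fold. Among the partners of G9a and GLP, *Zfp644*, a zinc finger protein that guides the heterodimer, rose in both series, in the ESC series by 2.54 ± 0.179 (limma, adjusted p = 2.06e-05), and *Cdyl2* fell in both, in the pESC series not with the compared groups alone (limma, adjusted p = 0.0588), without the second pESC library (adjusted p = 0.0520) or without the first pESC-PGCLC library (-0.84). The other partners listed, *Wiz* and *Cdyl*, were not called in either series. *Wiz* was lower in both (-0.58 ± 0.155 and -0.37 ± 0.155, limma adjusted p = 0.0157 and 0.0917). *Cdyl* was higher in both (0.56 ± 0.201 and 0.55 ± 0.201, limma adjusted p = 0.0503 and 0.0551). *Zfp809*, a KRAB zinc finger protein that silences retroviral elements, fell in both series as *Zfp57* did, with log2 differences of -2.19 ± 0.190 and -1.20 ± 0.190 (-0.98 in the pESC series without the second pESC library). It was the 1 of 4 KRAB zinc finger genes listed that was called in either series, where 15.3% and 20.8% of all genes were called higher and 14.5% and 6.80% lower. *Zfp932* was also lower in both, just under 2-fold (-0.97 ± 0.254 and -0.95 ± 0.254, limma adjusted p = 0.0149 and 0.0168).

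In the group of imprint protection and maintenance methylation, *Dppa3* (PGC7/Stella), which shields methylation in the zygote and marks germ cells, rose from 353 and 378 TPM in ESCs to 5628 and 5681 TPM in ESC-PGCLCs. It was also the 1 gene of the list called in pESCs versus ESCs, higher in pESCs by 1.10 ± 0.186 (limma, adjusted p = 0.0435). That call was lost with quantile normalization (adjusted p = 0.0610), without the filter (0.0602), with the replicate block (0.0666), with the compared groups alone (0.238; limma) and in 8 of 10 fits without 1 library, all but those without a PGC library. The interaction of *Dppa3* was called with a negative sign (-1.36 ± 0.264, limma adjusted p = 0.00863), though not under quantile normalization (-0.97) or without the first ESC library (adjusted p = 0.0501). In all, 3 genes of the list had a called interaction above 0 and 1 below, where 15.5% and 3.53% of all genes did. *Uhrf1*, which brings DNMT1 to replicated DNA, fell in both series, from 32.2 and 28.5 TPM in ESCs to 4.59 and 7.21 TPM in ESC-PGCLCs. *Dnmt1*, the maintenance methyltransferase itself, rose in both, by 1.16 ± 0.216 and 1.98 ± 0.216 (limma, adjusted p = 0.00278 and 0.000213). Against ESC-PGCLCs 3 genes of the list were called higher in PGCs and 1 lower, where 12.0% and 1.88% of all genes were, and against pESC-PGCLCs 2 higher and 0 lower, where 2.07% and 1.60% were. Against ESC-PGCLCs, PGCs had more *Zfp568* (1.48 ± 0.350), *Dnmt1* (1.28 ± 0.216) and *Uhrf1* (1.18 ± 0.251) and less *Cbx3* (-1.08 ± 0.234). Against pESC-PGCLCs they had more *Uhrf1* (1.06 ± 0.251) and *Trim24* (1.06 ± 0.212), a relative of *Trim28*. Of these differences only that of *Cbx3* was called under quantile normalization and centring as well, the others lying between 0.57 and 0.94. With the compared groups alone none of them was called (limma, adjusted p from 0.0595 to 0.168). Against pESC-PGCLCs, *Uhrf1* and *Trim24* were called in 3 of 10 fits without 1 library, those without a pESC library or without the second PGC library. There *Uhrf1* was not called with the replicate block (limma, adjusted p = 0.0598), a pseudocount of 0.1 (0.0584) or no filter (0.0595). Against ESC-PGCLCs, *Zfp568* and *Cbx3* lost their calls without either ESC-PGCLC library or without the first PGC library, and *Dnmt1* without the first PGC library (0.96). *Uhrf1* lost its call there without the first ESC-PGCLC (0.90) or the first PGC library (0.94). No gene of the list was called between the PGCLC groups by limma, where 7 of 33 had an unadjusted p under 0.05, beside 35.3% of all genes, and 4 (*Cbx5*, *Pphln1* and *Morc2a* higher, *Zfp644* lower) an adjusted p under 0.05 below the 2-fold minimum.

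**Figure D5:**
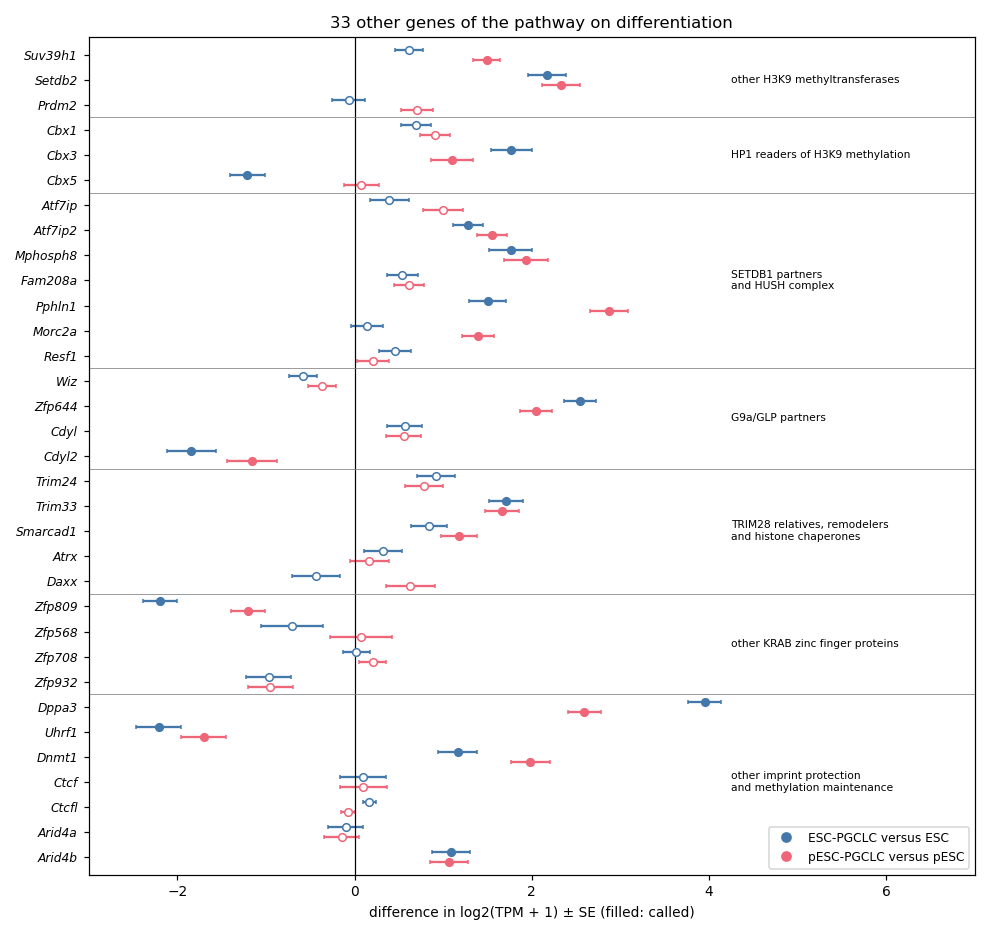
Difference in log2(TPM + 1) with its standard error (horizontal axis) for 33 other genes of the pathway (rows, grouped by role) in ESC-PGCLCs versus ESCs and in pESC-PGCLCs versus pESCs, filled where called. *Dppa3*, *Zfp644* and *Setdb2* lie to the right in both series and *Uhrf1*, *Zfp809* and *Cdyl2* to the left, and *Cbx5* is filled in the ESC series alone.

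Likeness was described by Pearson's r of log2(TPM + 1) over the 10 libraries, which share groups and scaling, among the 14838 tested genes averaging 1 TPM or more. The members fell into patterns. *Setdb1*, *Ehmt1*, *Suv39h2* and *Zfp445* had pairwise r between 0.958 and 0.995, *Trim28* and *Ehmt2* had r = 0.900 with each other and at most 0.643 with those 4, and *Zfp57* had negative r with all 6 others. The genes most like *Suv39h2* were *Copb2* (r = 0.999), *Crybg3* (0.998) and *Brd7* (0.998), and those most like *Setdb1* were *Ttk* (0.998), *Atf2* (0.997) and *Dusp16* (0.997). *Ehmt1* was most like *Ppp4r2* (r = 0.997), *Cenpf* (0.997) and *Sbno1* (0.996), and *Zfp445* like *Mtmr6* (0.994), *Map3k15* (0.993) and *Selenot* (0.991). *Trim28* was most like *Tprgl* (r = 0.991), *Zfyve19* (0.990) and *Gm10069* (0.988), *Ehmt2* like *Rnf40* (0.991), *Ttc7b* (0.987) and *Triobp* (0.986), and among the genes most like *Zfp57* were *Acrbp* (0.997) and *Slc17a9* (0.996). By Spearman's rho these genes had values of 0.915 or more but other ranks, such as rank 274 for *Copb2* with *Suv39h2*, rank 326 for *Dusp16* with *Setdb1* and rank 1285 for *Selenot* with *Zfp445*.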

How the data were processed

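RNA-seq of 10 mouse libraries, 2 in each of 5 groups taken from the labels, was analysed. Per the study's methods the authors used Hisat2 for alignment (mm10) and Feature-counts for gene counts, and the deposited values are TPM by gene symbol. The sources differ on the library kit, and on strand nothing is given in the sources used here. Exon lengths were those of GENCODE M21, to which 35859 of 36066 symbols matched. TPM times exon length, after a factor for each library, was within 0.02 of a whole number for 94.7% to 94.9% of values above 0, and these whole numbers are the recovered reads. Values were analysed as log2(TPM + 1) for 27259 genes, those that reached 0.1 TPM in 2 or more libraries. In R 4.3.3, limma 3.58.1 fitted 5 group means (5 residual and 2.81 prior degrees of freedom, variances that follow the mean) with Benjamini-Hochberg adjustment over all genes of a comparison, and the procedure was tested on simulated data. The members, gene lists and alternatives were chosen with earlier results of these data known. Named were all members, in each comparison the 2 called genes of the pathway list that rose most and the 2 that fell most without replicate overlap, and the 3 genes most like each member, of which 1 is not reported here. *Setdb2*, *Suv39h1*, *Cdyl2*, *Wiz*, *Cdyl*, *Atf7ip2*, *Morc2a*, *Zfp932*, the endothelial genes and *Cbx3* in the pESC series were named after their values were seen. So were *Ddx4*, the pluripotency genes other than *Pou5f1*, the single gonadal somatic genes and *Uhrf1* in PGCs versus ESC-PGCLCs. The marker lists were curated by hand. Alternatives were another pseudocount (0.1), a filter of 1 TPM, no filter, the compared groups alone, quantile normalization, median centring, replicate as a block, no minimum fold change, Spearman's rho, ratios of TPM + 1 and leaving out each library. A fit with voom on recovered reads was added after seeing the data. Other steps used Python 3.11.15 with matplotlib 3.10.9, numpy 2.4.6 and pandas 2.3.3.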

Additional observations from a re-analysis of the deposited data

Results flagged for a closer look

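The change with differentiation differed between the origins of the cells for *Trim28* and *Zfp57* by a test of the difference itself. The log2 difference in the pESC series minus that in the ESC series was 2.25 for *Trim28*, which was higher after differentiation in each library of the pESC series and lower in each of the ESC series. It was 2.08 for *Zfp57* (3.64 with a pseudocount of 0.1), which was lower after differentiation in all libraries of both origins.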

How the results depend on the processing

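Of 49 log2 differences (7 genes in 7 comparisons), 49 kept sign and call without the filter, 48 with a filter of 1 TPM, 47 with a pseudocount of 0.1, 45 with the compared groups alone, 41 on recovered reads, 36 with quantile normalization and 32 with median centring. Where a sign or call changed with a scaling, the cause was not tested. The number of members called in pESCs versus ESCs was 1 on recovered reads, in place of 0. In pESC-PGCLCs versus ESC-PGCLCs it was 2 with a pseudocount of 0.1, with no minimum fold change and on recovered reads, in place of 1. In pESC-PGCLCs versus pESCs it was 3 with median centring, in place of 6. In PGCs versus ESC-PGCLCs it was 0 with the compared groups alone (limma, 4 members at an unadjusted p under 0.05), 1 with quantile normalization or median centring, 4 with no minimum fold change, and 1 to 2 with 1 library left out, in place of 2.

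Signs turned under quantile normalization and median centring. In pESCs versus ESCs *Ehmt1* was at 0.051 (centring) and *Zfp445* at 0.091 (quantile) and 0.17 (centring). In pESC-PGCLCs versus ESC-PGCLCs the quantile and centred values were -0.37 and -0.37 for *Setdb1*, -0.14 and -0.17 for *Suv39h2*, -0.35 and -0.41 for *Ehmt1* and -0.37 and -0.40 for *Zfp445*, and on recovered reads *Setdb1*, *Ehmt1* and *Zfp445* were at -0.059, -0.092 and -0.081. In PGCs versus ESC-PGCLCs they were -0.28 and -0.28 for *Ehmt1* and -0.025 and -0.066 for *Zfp445*, and centring gave -0.084 for *Setdb1* and -0.28 for *Zfp57*. For the interaction they were -0.27 and -0.34 for *Setdb1*, -0.24 and -0.46 for *Ehmt1* and -0.46 and -0.57 for *Zfp445*, with -0.012 for *Zfp445* on recovered reads. With 1 library left out, where the lone library of a group is assumed to vary like the others, *Zfp445* ranged from -0.52 to 0.19 in pESCs versus ESCs, from -0.095 to 0.12 in pESC-PGCLCs versus ESC-PGCLCs and from -0.18 to 0.54 for the interaction. *Ehmt1* ranged from -0.13 to 0.13 in pESC-PGCLCs versus ESC-PGCLCs, and in PGCs versus pESC-PGCLCs *Trim28* ranged from -0.0025 to 0.45 and *Ehmt2* from -0.054 to 0.94.

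Counts over all genes moved by more than 1.5 times as follows. The 213 calls in pESCs versus ESCs became 402 with a filter of 1 TPM, 132 with none, 122 with quantile normalization, 459 on recovered reads and 0 with the compared groups alone (limma, 4276 at an unadjusted p under 0.05), and lay between 30 and 953 with 1 library left out. The 3772 in PGCs versus ESC-PGCLCs became 6140 with a pseudocount of 0.1, 1904 with quantile normalization and 0 with the compared groups alone (9328 unadjusted). The 1000 in PGCs versus pESC-PGCLCs became 1956 on recovered reads and 0 with the compared groups alone (6687 unadjusted), and lay between 34 and 1966 with 1 library left out. The 5197 of the interaction became 3305 without the first ESC library. The 8122 and 7535 on differentiation of ESCs and pESCs became 12295 and 11317 on recovered reads. With no minimum fold change the counts were 12637, 12160, 6496, 8471 and 2438 for differentiation of ESCs and of pESCs, between the PGCLCs, and for PGCs versus ESC-PGCLCs and versus pESC-PGCLCs, in place of 8122, 7535, 3651, 3772 and 1000. Replicate numbers recur across groups, and deviations of same-numbered libraries correlated by -0.051 to 0.045 over 14838 genes. With 2 libraries a group these values cannot show whether such libraries shared a culture, sort or batch. With the replicate block 49 of 49 differences kept sign and call, members called in pESC-PGCLCs versus pESCs stayed at 6, and the 213 calls over all genes became 78. Among the other genes of the pathway the block ended the calls of *Dppa3* in pESCs versus ESCs (limma, adjusted p = 0.0666) and of *Uhrf1* in PGCs versus pESC-PGCLCs (0.0598).

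Depth limits *Zfp57* in ESC-PGCLCs, at 1 and 4 reads, and *Ehmt2* there, at 34 and 44 reads.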
